A study of Mus musculus with 6 samples.

Results

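The G2/M and mitosis genes are a list of 45 genes whose products carry a cell from the end of DNA replication through chromosome segregation to the parting of the daughter cells. Each was represented by the probe set that names that gene alone, taking the one with the highest mean over 6 arrays where a gene had several. This gave 44 genes of the 19938 with a probe set of their own, and the expression of Ccnb1 was not analysed here. The arrays measured epithelial cells of the colon from wild-type male BALB/c mice aged 6 weeks, which were starved for 36 h and then fed again for 24 h. FACS had sorted the cells for EpCAM, a surface protein of epithelia, and against CD45, the leukocyte antigen. The design set 3 samples from mice that had food alone (re-fed) beside 3 from mice that also received antibiotics while they ate, and the comparison asks which transcripts of the re-fed epithelium differ with that treatment. Both groups had been starved, so neither stands for a mouse that was never fasted. Neither the antibiotics nor the number of mice behind a sample is named in the sources used here, and p-values measure the spread between these samples alone.

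Background on these genes is textbook knowledge. Cyclin A and B bind the kinase Cdk1 and drive entry into mitosis, the Aurora and Polo kinases build the spindle, the kinetochore ties chromosomes to microtubules under a checkpoint, and the anaphase-promoting complex then destroys cyclins and securin so that the chromatids part. Transcripts of these genes accumulate late in the cell cycle. The DREAM complex represses them in resting cells, and B-Myb and FoxM1 activate them as cells approach mitosis. In the colon, dividing cells lie in the lower crypt, and cells that move toward the surface stop dividing. In RNA from a whole sorted population, fewer dividing cells and less transcript per dividing cell cannot be told apart.

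Values are log2 expression after quantile normalisation, and every difference is antibiotics minus re-fed. A gene was tested where its mean over the arrays reached 5.81, the 40th percentile of probe sets with a gene. That floor left 31 members tested and 13 below it. Cenpf lay just above, with a mean of 5.81, and Prc1 just below, with 5.79. Deposited array medians ran from 5.63 to 6.17, and 4 arrays, re-fed 2 and 3 with antibiotics 1 and 2, bear the mark of a shared normalisation run. They had 372 to 435 distinct values in common per pair. Re-fed 1 shared 154 to 198 with each of them, and pairs with antibiotics 3 shared 42 to 67. Antibiotics 3 held only 10829 distinct values, where the other arrays held 34568 to 34596, so it also had fewer values to share. The reason was not tested. The difference within these 4 arrays, called the common run, stands beside the difference of each tested member. Of the sort's own markers, Epcam lay between 12.08 and 12.29 on all 6 arrays, while Ptprc, which encodes CD45, lay under the floor on all of them, at 5.30 to 5.54.

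None of the members passed the test (limma, with p adjusted by Benjamini and Hochberg's method over 12071 genes and a threshold of 0.05). Over 6 arrays the members lay slightly higher with antibiotics, by a median of 0.18 against 0.0033 for all genes tested. Of 31 members, 28 lay above 0 (90.3%, where 50.7% of all genes did) and 3 below. Within the common run the picture did not hold: the median was -0.037, with 13 above and 18 below 0 (41.9% above, against 52.6% of all genes). Left out singly, the arrays outside that run each lowered the median, to 0.072 without re-fed 1 and 0.067 without antibiotics 3, which left 18 members above 0. With array weights, which count those arrays least, it was 0.017, with 17 members above 0 (54.8%, against 52.5% of all genes).

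The share of genes called was 0.058% of all genes tested, 7 genes, and the smallest adjusted p of a member was 0.274, for Ccna2. At an unadjusted p under 0.05 there were 4 members, all above 0 (12.9%, where 5.3% of all genes had such a p and lay above 0, and 7.32% had one and lay below). In the common run there were 0 in either direction, where 8.13% of all genes were higher and 9.25% lower at that p, and 0 members were called, where 0.447% of all genes were. The 3 antibiotics values all exceeded the 3 re-fed values in 2 members, Cenpa and Cdc20 (6.45%, against 8.88% of all genes), a smaller share than the background. The order depended on single arrays. Without re-fed 2 the count was 10 (32.3%, against 12.2% of all genes) and without antibiotics 2 it was 8 (25.8%, against 15.3%). Without re-fed 1 it was 2, where 15.7% of all genes were separate and higher, and without antibiotics 3 it was 2, where 17.4% were. In 0 tested members did all antibiotics values lie below all re-fed values, as in 10.7% of all genes. In the common run, with 2 arrays a group, 2 members were higher and 4 lower without overlap, where 26.7% and 23.9% of all genes were. The split between members above and below 0 depended on the scaling, and so did that of all genes. It was 27 to 4 with array medians set equal (87.1% above, against 34.4% of all genes). With the deposited values as they stand it was 22 to 9 (71.0%, against 27.6%). The median of all genes was -0.080 with array medians set equal and -0.12 with the deposited values. Relative to that the members' median was 0.22 in both, where it was 0.18 in the main fit. The 95% interval of the difference lay inside -1 and 1 (a change of less than 2 times either way) for 30 of 31 members, all but Ccna2. It lay inside -0.5 and 0.5 for 11, and for the rest these arrays do not bound the difference that closely.

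**Figure D1:**
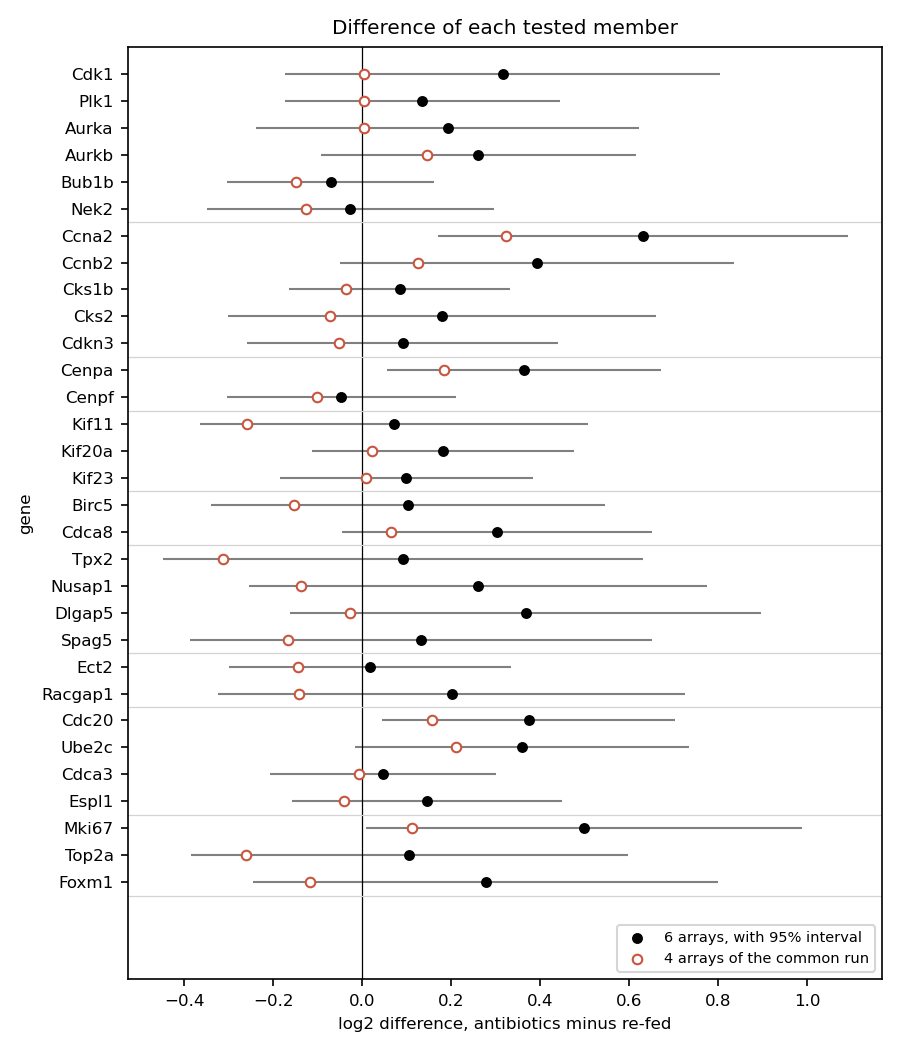
Log2 difference (antibiotics minus re-fed) of the 31 tested members, grouped by function. Filled points with bars give the limma estimate over 6 arrays and its 95% interval. Open points give the difference within the 4 arrays of the common run. Above 0 lie 28 filled points and 13 open points, where 50.7% and 52.6% of all genes do. With the deposited scaling 22 of the 31 lie above 0 over 6 arrays, where 27.6% of all genes do.

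Array by array, the members varied together. Their median deviation from each gene's own mean over 6 arrays was -0.29, 0.12 and -0.14 on re-fed arrays 1 to 3 and 0.043, -0.058 and 0.32 on antibiotics arrays 1 to 3. The groups overlapped, since re-fed 2 lay above antibiotics 1 and 2, while re-fed 1 was the lowest array and antibiotics 3 the highest. The means were -0.10 ± 0.20 without and 0.10 ± 0.20 with antibiotics (SD, n = 3 each), so the gap between groups was about as large as the spread inside each. Antibiotics 3 held the highest of 6 values in 25 of 31 members and re-fed 1 the lowest in 18 (in 2745 and 2287 of all 12071 genes tested). Both are arrays outside the common run. Antibiotics 3 was also the lowest array in 3148 of all genes tested, and in 0 of these members. With the deposited scaling the members' median deviation on antibiotics 3 was -0.066, where that of all genes was -0.46, and on re-fed 1 it was -0.40 where that of all genes was -0.13. Over all 44 members with a probe set, dim ones included, antibiotics 3 was highest in 32 and re-fed 1 lowest in 29. Inside the common run the clearest contrast was between re-fed arrays: re-fed 2 exceeded re-fed 3 in 31 of 31 members. The median deviation of all genes tested was -0.0069 on re-fed 2 and 0.013 on re-fed 3. Re-fed 2 also exceeded antibiotics 1 in 23 members and antibiotics 2 in 28.

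**Figure D2:**
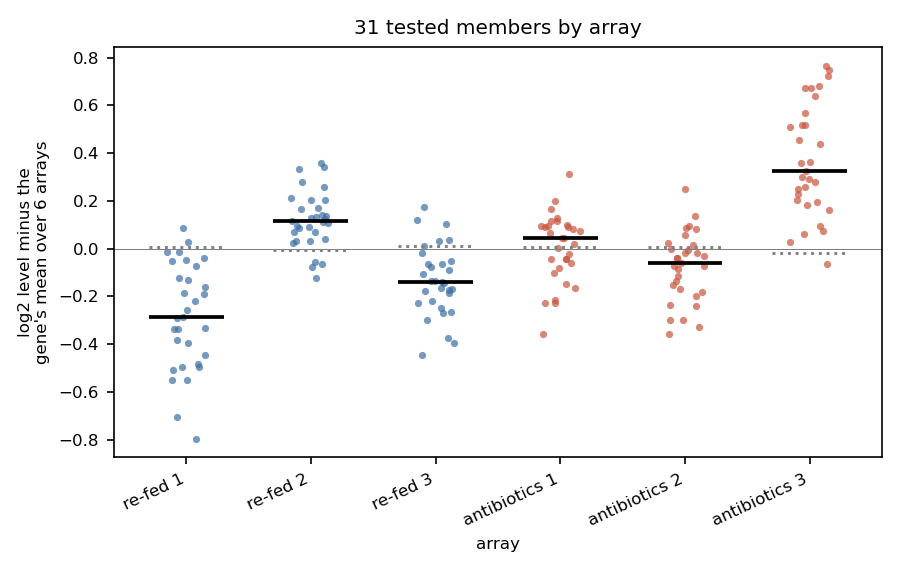
Log2 level of each of the 31 tested members minus its mean over 6 arrays (vertical axis), by array (horizontal axis); each point is a gene, black lines mark the members' median and dotted lines the median of all 12071 genes tested. The members' median is lowest on re-fed 1 (-0.29) and highest on antibiotics 3 (0.32), and the lines of re-fed 2 and antibiotics 1 and 2 are out of the order that the groups would give; with the deposited scaling the median on antibiotics 3 is -0.066 against -0.46 for all genes.

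The correlation of each member with the median deviation of the others over the 6 arrays describes how tightly they followed one another. Its median was 0.82 (Pearson), and 18 of 31 members exceeded 0.8, where 4.49% of all genes tested did so against the members' median. Among the lists most like the members, 13 of 41 other mitosis genes (31.7%, median 0.69) and 3 of 15 S-phase genes (20.0%, median 0.68) exceeded it too. Espl1, the separase that cuts cohesin, and Mki67 lay closest to the rest, both at 0.96. Cenpf, a kinetochore protein, lay farthest, at 0.14, followed by Nek2 and Bub1b, both at 0.47. The points share 6 arrays and their scaling, and a common shift of any array enters every correlation, so no p is given. Values of other genes on the same arrays are given beside this pattern. Crypt-base stem cell markers had a median deviation of 0.29 on antibiotics 3 and 0.060 on re-fed 1 (10 on the array, 7 above the floor). S-phase genes had 0.35 and -0.14, absorptive colonocyte markers -0.20 and -0.035, T cell markers 0.20 and 0.030, and enteroendocrine markers 0.46 and -0.098. Goblet cell markers had 0.0080 and -0.047, stroma markers -0.00041 and 0.11, and markers of the sorted epithelium -0.063 and 0.12. General leukocyte genes had -0.073 and 0.019, B and plasma cell markers -0.079 and -0.052, and myeloid markers -0.13 and -0.097. Summed over the lists on the linear scale, crypt-base markers spanned 2898 to 3325 in the re-fed and 2658 to 2948 in the antibiotics group, and colonocyte markers 62498 to 68994 and 57849 to 63859. For crypt-base markers the sum ran against the median deviation on antibiotics 3, where the sum was lowest of the 6 arrays (2658) and the median deviation highest. On re-fed 1 the sum was highest (3325), and the median deviation was exceeded only by that of antibiotics 3. Prom1, a gene of the list, lay at 9.46 on antibiotics 3 and 10.20 to 10.48 on the other arrays. Sox9, also of the list, lay at 10.02 on re-fed 1 and 8.72 to 9.33 on the other arrays. Markers of leukocytes, which also divide, were mostly under the floor: 2 of 6 general leukocyte genes passed it, 1 of 8 of T cells, 2 of 7 of B and plasma cells and 2 of 8 of myeloid cells. Their summed levels were 290.4 to 303 and 266 to 297 for general leukocyte genes, 279 to 313 and 279 to 326 for T cells, 263 to 291 and 285 to 295 for B and plasma cells, and 503 to 621 and 542 to 649 for myeloid cells. The part of these values in the members' pattern was not tested.

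**Figure D3:**
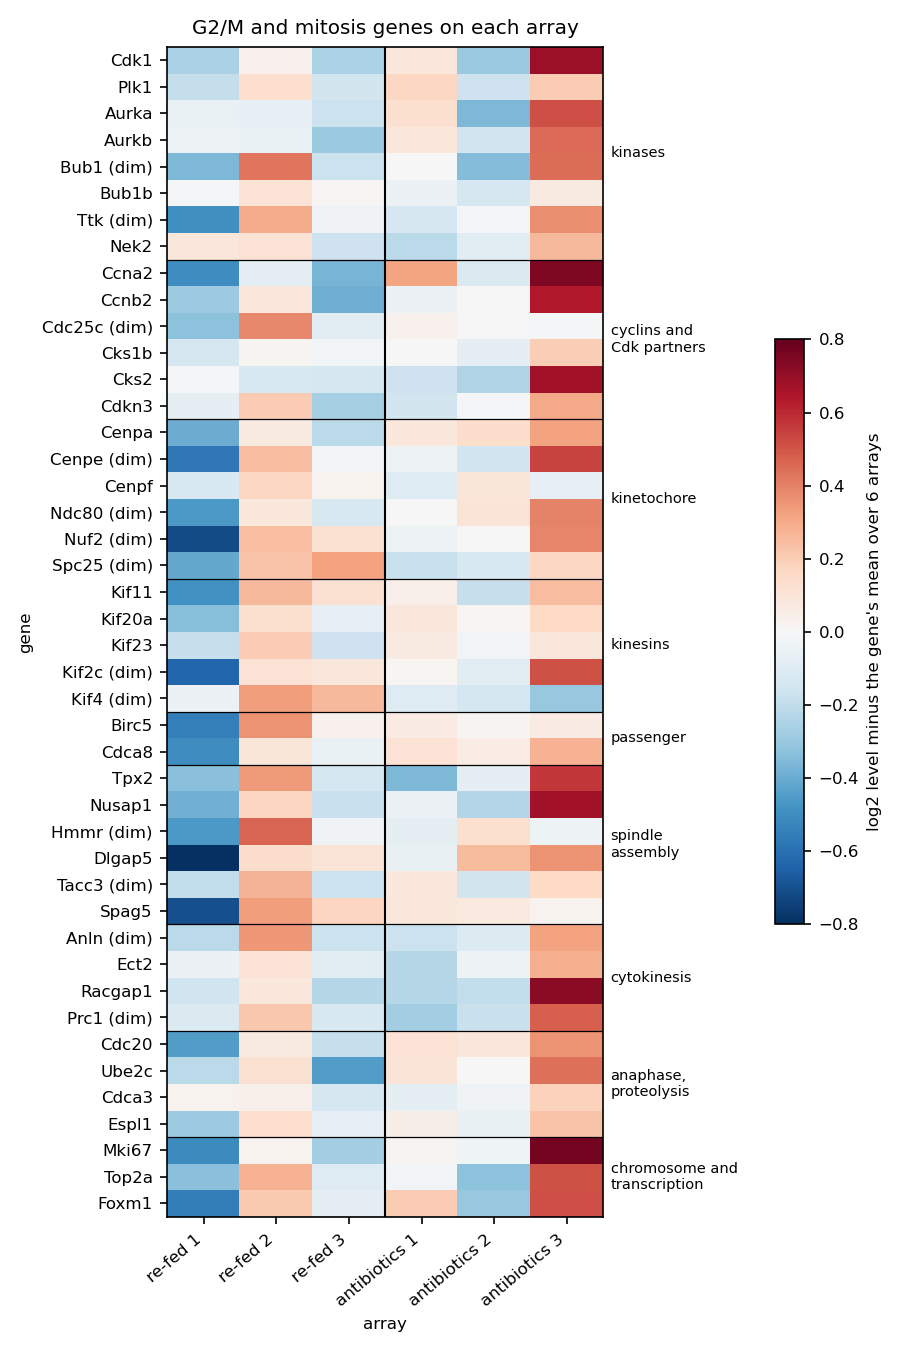
Log2 level of the 44 members with a probe set (vertical axis, grouped by function) on the 6 arrays (horizontal axis), as the deviation from the gene's mean over 6 arrays; red is higher, blue lower, and "dim" marks the 13 genes under the floor, which were not tested. The column of re-fed 1 is mostly blue and that of antibiotics 3 mostly red across all function groups. After quantile normalisation 29 genes are at their lowest on re-fed 1 and 32 at their highest on antibiotics 3. Of the 12071 genes tested, 2287 and 2745 are.

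A feature that the members share and that did not enter their choice is the sequence at their starts of transcription. Genes of the late cell cycle are known for the cell cycle genes homology region (CHR), which binds the DREAM and MuvB complexes, and for CCAAT boxes, which bind NF-Y. RefSeq windows of 300 bases (250 before and 50 after the annotated start, assembly GRCm38.p6) matched 38 members by symbol, in 40 windows. Ect2 and Prc1 each have overlapping windows, and the matches that these share are counted in each. The letters TTTGAA or TTCGAA on either strand stood for the CHR and CCAAT on either strand for the NF-Y box; 1 CHR match in the members overlapped a CCAAT match. A CHR match was found in 32 of 40 windows (80.0%), against 19.2% of all 32851 windows. CCAAT was found in 33 (82.5%, against 37.4% of all) and both together in 29 (72.5%, against 7.52%). Among the other mitosis genes described further on, both stood together in 29 of 70 windows (41.4%). Of 43 CHR matches in the members, 30 began within 60 bases of the start, and their median position was -5. CCAAT matches lay farther upstream, 76 of 82 before the start with a median position of -63.5. Pairs of CCAAT boxes on the same strand, spaced 31 to 33 bases from start to start, were seen in 8 members' windows (20.0%, against 0.794% of all), a spacing chosen after these windows had been examined. The members with such a pair were Cdk1, Aurka, Nek2, Ccnb1, Ccnb2, Spc25, Hmmr and Ube2c. A match is a run of letters, not a measured binding site.

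The stretches upstream of the start are shown for Cenpa, Cdc20, Mki67 and Ube2c, the named members with a window that holds both elements and the smallest p. Capitals mark CHR and CCAAT matches (TTCAAA and ATTGG are the same letters read on the other strand), and each sequence runs 5′ to 3′ along the gene's strand and ends 1 base before the annotated start. The run CCAATTGG of Ube2c holds a CCAAT match on each strand, which overlap. The CHR match of Cenpa begins at position 17 of the transcript and is not printed; Cdc20 and Ube2c carry 1 before the start and Mki67 carries 2.
Cenpa (chr5:30666767-30666885, plus strand): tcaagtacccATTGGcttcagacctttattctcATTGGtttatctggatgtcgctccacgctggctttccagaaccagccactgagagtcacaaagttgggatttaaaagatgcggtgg
Cdc20 (chr4:118437344-118437406, minus strand): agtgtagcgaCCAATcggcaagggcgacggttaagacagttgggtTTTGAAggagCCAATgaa
Mki67 (chr7:135716380-135716577, minus strand): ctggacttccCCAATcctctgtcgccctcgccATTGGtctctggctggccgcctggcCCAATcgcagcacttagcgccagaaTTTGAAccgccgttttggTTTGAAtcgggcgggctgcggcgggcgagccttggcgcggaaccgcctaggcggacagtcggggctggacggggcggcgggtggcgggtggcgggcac
Ube2c (chr2:164769729-164769928, plus strand): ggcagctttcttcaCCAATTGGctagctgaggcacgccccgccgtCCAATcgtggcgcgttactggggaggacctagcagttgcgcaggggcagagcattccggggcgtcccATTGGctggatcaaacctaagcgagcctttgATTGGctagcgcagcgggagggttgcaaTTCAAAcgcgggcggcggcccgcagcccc

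**Figure D4:**
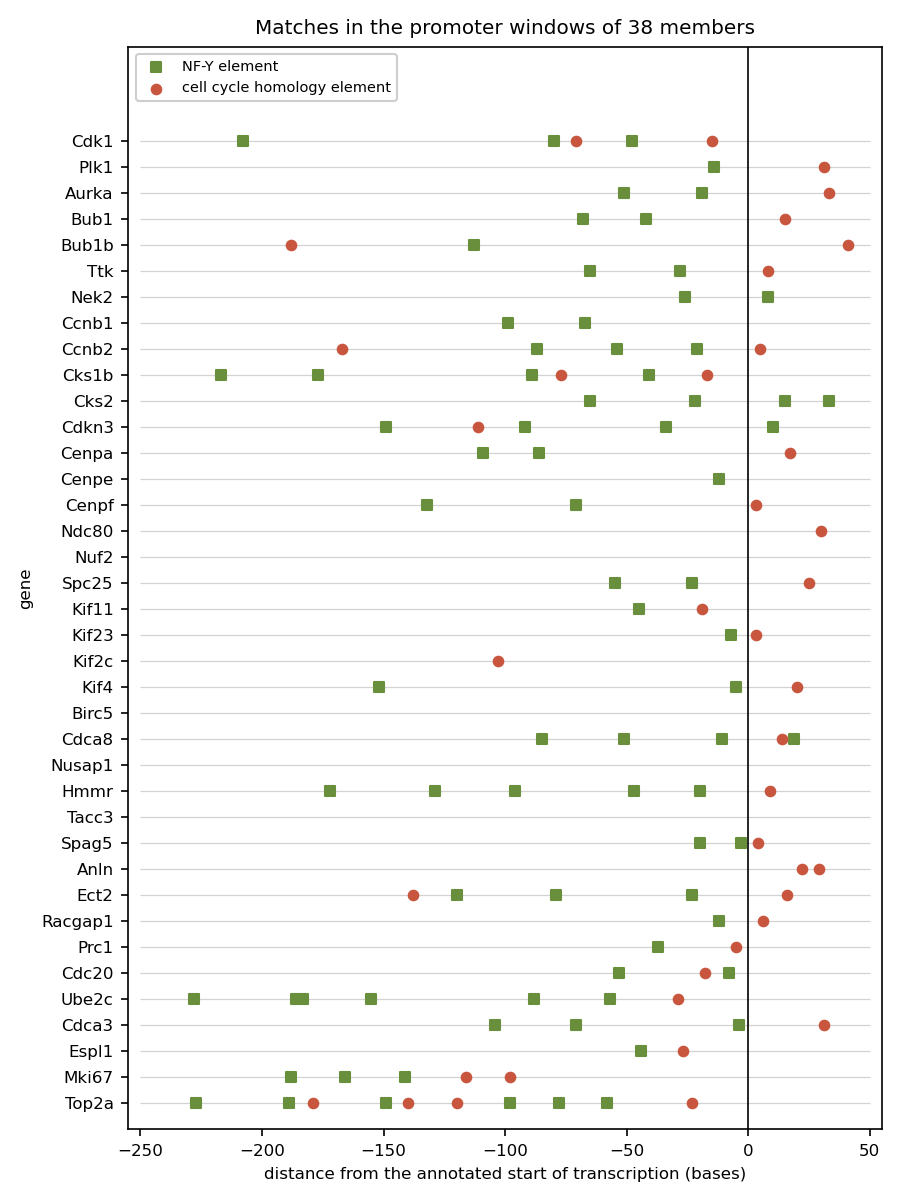
Positions of CHR matches (circles) and NF-Y box matches (squares) in the windows of 38 members (vertical axis), as the distance in bases from the annotated start of transcription (vertical line), 1 window per gene. The circles gather near the start and the squares upstream of it; Nuf2, Birc5, Nusap1 and Tacc3 have no match in this window.

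Among the cyclins and partners of Cdk1, Ccna2 had the largest difference of any member. Its product, cyclin A2, acts in S phase and at entry into mitosis. The levels were 7.64, 8.06 and 7.76 on re-fed arrays 1 to 3 and 8.45, 8.02 and 8.89 on antibiotics arrays 1 to 3. The groups overlapped by a small margin, re-fed 2 lying above antibiotics 2, and the difference was 0.63 (SE 0.20, 95% interval 0.17 to 1.09, adjusted p = 0.274), a 1.55-fold higher level. The common run gave 0.32 (adjusted p = 0.355). Ccna2 was also the 1 member called in any alternative fit, being 0.52 higher with array weights (limma, adjusted p = 0.0421). The weights were 0.495 for re-fed 1 and 0.33 for antibiotics 3, against 0.687 to 3.82 for the other arrays. That fit called a smaller share of the members than of all genes, as counted further on. Ccnb2 encodes cyclin B2, a partner of Cdk1 in mitosis, and lay at 8.38, 8.76 and 8.28 without and 8.63, 8.66 and 9.31 with antibiotics. Antibiotics 3 stood apart above the 5 other arrays, and the difference was 0.39 (SE 0.20, 95% interval -0.050 to 0.84, adjusted p = 0.447) over 6 arrays and 0.13 in the common run.

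Cks2, a small subunit that Cdk1 needs in mitosis and meiosis, lay at 8.53, 8.43 and 8.41 without and 8.38, 8.31 and 9.22 with antibiotics. Only antibiotics 3 was high, and the difference of 0.18 (SE 0.21, adjusted p = 0.767) turned to -0.073 in the common run and to -0.030 with the deposited scaling. It has 3 probe sets that name it alone, and the others gave 0.023 and -0.041, so the sign rests on the choice of probe set. Whether all 3 measure the same transcript was not tested. Its paralog Cks1b and the phosphatase Cdkn3, which acts on Cdk1 and Cdk2, differed by 0.084 and 0.091 over 6 arrays and by -0.037 and -0.052 in the common run. Of the 5 tested members of this group, all lay above 0 (3 with the deposited scaling) and none passed, and 2 lay above 0 in the common run. Cdc25c, the phosphatase that activates Cdk1, was dim (4.99 to 5.70 over the arrays).

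**Figure D5:**
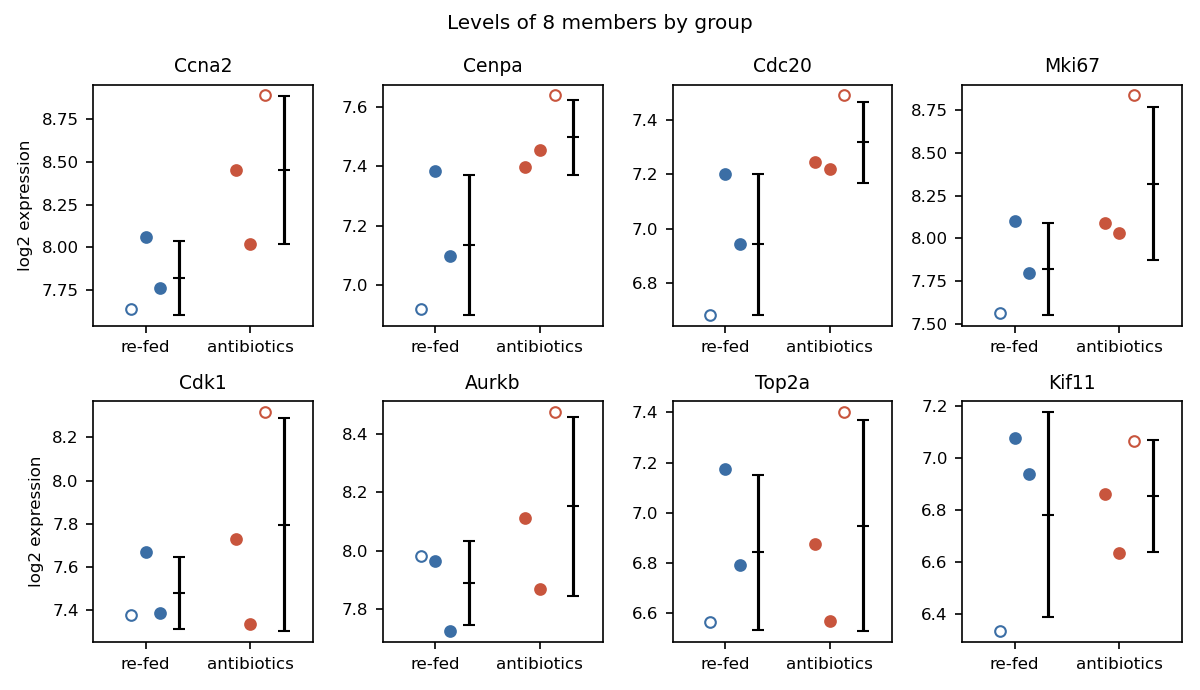
Log2 expression of 8 members (panels) in the re-fed (blue) and antibiotics (red) groups; each point is an array, filled for the 4 arrays of the common run and open for re-fed 1 and antibiotics 3, with mean and SD (n = 3) at the right of each group. The groups do not overlap for Cenpa and Cdc20, and an open point, antibiotics 3, is the highest in every panel but that of Kif11; the vertical axes do not start at 0 and differ between panels.

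Of the mitotic kinases, Cdk1 itself lay at 7.38, 7.67 and 7.39 without and 7.73, 7.34 and 8.32 with antibiotics. Re-fed 2 and antibiotics 1 were close to each other, antibiotics 2 was the lowest array, and antibiotics 3 was far above the rest. The difference was 0.32 (SE 0.22, 95% interval -0.17 to 0.81, adjusted p = 0.578), and 0.0053 in the common run. Aurkb, the kinase of the chromosomal passenger complex, which corrects wrong attachments of chromosomes, lay at 7.98, 7.97 and 7.72 without and 8.11, 7.87 and 8.47 with antibiotics. Its difference was 0.26 (SE 0.16, 95% interval -0.093 to 0.62, adjusted p = 0.521) and stayed above 0 in the common run, at 0.15.

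Aurka, the Aurora kinase of the spindle poles, lay at 6.64, 6.63 and 6.52 without and 6.82, 6.33 and 7.21 with antibiotics. The re-fed arrays were close together and lay between antibiotics 2 and antibiotics 1; the difference was 0.19 (SE 0.19, adjusted p = 0.709), 0.0040 in the common run and -0.018 without antibiotics 3. Plk1, the Polo kinase, lay at 7.48, 7.80 and 7.53 without and 7.84, 7.50 and 7.87 with antibiotics, high on re-fed 2, antibiotics 1 and antibiotics 3 and low on the rest, with a difference of 0.14 (SE 0.14, adjusted p = 0.718), 0.0051 in the common run and -0.018 with the deposited scaling. The 2 tested kinases below 0 were Bub1b (BubR1, a checkpoint component, -0.071, and -0.15 in the common run) and Nek2 (a centrosomal kinase, -0.027, and -0.13 in the common run). In all, 4 of 6 tested kinases lay above 0 (3 of 6 with the deposited scaling) and none passed, and the checkpoint kinases Bub1 (5.32 to 6.12) and Ttk (4.52 to 5.38) were dim.

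At the kinetochore, Cenpa was 1 of the 2 members whose groups did not overlap. It encodes the histone H3 variant that marks centromeres. Its levels were 6.92, 7.39 and 7.10 on re-fed arrays 1 to 3 and 7.40, 7.45 and 7.64 on antibiotics arrays 1 to 3. Re-fed 2 and antibiotics 1 were almost level, and the difference was 0.36 (SE 0.14, 95% interval 0.055 to 0.67, adjusted p = 0.331), a 1.29-fold higher level, with 0.18 in the common run (adjusted p = 0.475). Cenpf lay at 5.68, 5.97 and 5.84 without and 5.71, 5.90 and 5.74 with antibiotics, a difference of -0.047 (SE 0.11, adjusted p = 0.897) with both groups interleaved, and -0.10 in the common run. The remaining 4 members of the group were under the floor: the kinetochore motor Cenpe and the Ndc80 complex subunits Ndc80, Nuf2 and Spc25. Of these, 3 lay above 0 (0.23 to 0.34) and Spc25 at -0.091, without a test.

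Kinesins move along or take apart the microtubules of the spindle. Kif11 (Eg5), which pushes the spindle poles apart, lay at 6.33, 7.08 and 6.94 without and 6.86, 6.63 and 7.07 with antibiotics. Re-fed 1 was the lowest array, and re-fed 2 and antibiotics 3 were level at the top; the difference was 0.072 (SE 0.19, 95% interval -0.36 to 0.51, adjusted p = 0.908) over 6 arrays and -0.26 in the common run, a change of sign. Kif20a, needed for cytokinesis, lay at 6.17, 6.64 and 6.44 without and 6.60, 6.52 and 6.67 with antibiotics, lowest on re-fed 1 with re-fed 2 and antibiotics 3 level at the top, a difference of 0.18 (SE 0.13, adjusted p = 0.594) and 0.022 in the common run. Kif23, a motor of the midzone, lay at 6.65, 7.04 and 6.67 without and 6.91, 6.81 and 6.93 with antibiotics, highest on re-fed 2, and differed by 0.099 (SE 0.13, adjusted p = 0.786), or 0.0097 in the common run. All 3 tested kinesins lay above 0 (2 of 3 with the deposited scaling) and none passed.

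Kif4 and Kif2c were dim. Kif4, a chromosome-bound kinesin, was the 1 dim member whose groups did not overlap, and it lay lower with antibiotics: its levels were 5.36, 5.75 and 5.67 on re-fed arrays 1 to 3 and 5.31, 5.28 and 5.11 on antibiotics arrays 1 to 3. The gap of -0.36 ran against most of the list, and with no filter on dim signal 0 members passed. With no filter, 1 of 44 members had all antibiotics values below all re-fed values, where 1605 of 19938 genes did. Kif4 is named after its values were seen. Kif2c, which takes microtubules apart at centromeres, differed by 0.29, without a test.

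Birc5 and Cdca8 encode survivin and borealin, the partners of Aurkb in the passenger complex. Birc5 lay at 5.71, 6.61 and 6.29 without and 6.32, 6.28 and 6.32 with antibiotics, with re-fed 1 low and the antibiotics arrays nearly equal. Its difference was 0.10 (SE 0.20, adjusted p = 0.865) and -0.15 in the common run. Cdca8 lay at 5.42, 6.02 and 5.87 without and 6.04, 5.98 and 6.20 with antibiotics; its groups overlapped through re-fed 2, and the difference was 0.30 (SE 0.15, 95% interval -0.046 to 0.65, adjusted p = 0.455) and 0.066 in the common run. Neither passed.

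The 4 tested spindle assembly factors had a median deviation of -0.54 on re-fed 1, the lowest array of the 6. Dlgap5 (HURP), which stabilises microtubules near chromosomes, lay at 5.65, 6.59 and 6.55 without and 6.39, 6.70 and 6.81 with antibiotics. Spag5 (astrin), a protein of the spindle and kinetochores, lay at 5.22, 6.26 and 6.10 without and 6.02, 6.01 and 5.96 with antibiotics. Re-fed 1 lay far below the 5 other arrays for both. Their differences were 0.37 (SE 0.24, adjusted p = 0.55) and 0.13 (SE 0.23, adjusted p = 0.847), and -0.027 and -0.17 in the common run. Nusap1, which bundles spindle microtubules, was highest on antibiotics 3, at 5.61, 6.17 and 5.82 without and 5.95, 5.76 and 6.67 with antibiotics, a difference of 0.26 (SE 0.23, adjusted p = 0.663) and -0.14 in the common run. With Tpx2, the activator of Aurora A (0.092 over 6 arrays and -0.31 in the common run), the 4 tested members lay above 0 over 6 arrays and below 0 in the common run, and none passed in either. Hmmr, a spindle protein, and Tacc3, which links microtubules in the spindle, were dim and differed by 0.012 and 0.065.

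Of the genes of cytokinesis, Racgap1, a part of centralspindlin, lay at 6.42, 6.67 and 6.36 without and 6.36, 6.39 and 7.31 with antibiotics. Apart from antibiotics 3, the arrays lay close together, and the difference of 0.20 (SE 0.23, adjusted p = 0.759) became -0.14 in the common run. Ect2, the exchange factor that activates RhoA at the cleavage furrow, lay at 7.33, 7.49 and 7.29 without and 7.15, 7.34 and 7.67 with antibiotics; its difference of 0.018 (SE 0.14, adjusted p = 0.973) was below 0 in the common run (-0.14), with array medians set equal (-0.074) and with the deposited scaling (-0.11). Neither passed, and 1 of the pair lay above 0 with either other scaling. Anln (anillin, a scaffold of the contractile ring) and Prc1 (which crosslinks the midzone) were dim and differed by 0.029 and 0.016.

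Genes of mitotic proteolysis gave the other member whose groups did not overlap. Cdc20, the activator of the anaphase-promoting complex, lay at 6.68, 7.20 and 6.94 on re-fed arrays 1 to 3 and 7.24, 7.22 and 7.49 on antibiotics arrays 1 to 3. Re-fed 2 fell just short of antibiotics 2, re-fed 1 was well below, and the difference was 0.37 (SE 0.15, 95% interval 0.045 to 0.70, adjusted p = 0.344), a 1.30-fold higher level, with 0.16 in the common run (adjusted p = 0.525). Ube2c, the ubiquitin-conjugating enzyme of that complex, lay at 7.13, 7.47 and 6.90 without and 7.45, 7.35 and 7.79 with antibiotics. Its groups overlapped through re-fed 2, and the difference was 0.36 (SE 0.17, 95% interval -0.015 to 0.74, adjusted p = 0.415) and 0.21 in the common run. Espl1 lay at 5.89, 6.32 and 6.12 without and 6.23, 6.12 and 6.41 with antibiotics, with re-fed 2 above antibiotics 1 and 2, a difference of 0.15 (SE 0.13, adjusted p = 0.684) and -0.042 in the common run. With Cdca3, which acts in the degradation of the Wee1 kinase (0.047, and -0.0074 in the common run), all 4 lay above 0 and none passed (3 of 4 lay above 0 with the deposited scaling and 2 of 4 in the common run).

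Mki67, the antigen Ki-67 that coats mitotic chromosomes and marks dividing cells, lay at 7.56, 8.10 and 7.80 on re-fed arrays 1 to 3 and 8.09, 8.03 and 8.84 on antibiotics arrays 1 to 3. Re-fed 2 and antibiotics 1 were level, antibiotics 2 was just below them, and antibiotics 3 stood far above the rest. The difference was 0.50 (SE 0.22, 95% interval 0.0076 to 0.99, adjusted p = 0.387), and 0.11 in the common run. Top2a, the topoisomerase that untangles sister chromatids, lay at 6.56, 7.17 and 6.79 without and 6.87, 6.57 and 7.40 with antibiotics; re-fed 1 and antibiotics 2 were level at the bottom, and the difference was 0.11 (SE 0.22, 95% interval -0.38 to 0.60, adjusted p = 0.875), or -0.26 in the common run. Another probe set of Top2a, which was dim, gave -0.022. Foxm1, the transcription factor of G2/M genes, lay at 5.56, 6.32 and 6.04 without and 6.31, 5.81 and 6.63 with antibiotics, with re-fed 1 lowest and re-fed 2 level with antibiotics 1, a difference of 0.28 (SE 0.23, 95% interval -0.24 to 0.80, adjusted p = 0.646) and -0.12 in the common run. None of the 3 passed. Over the 9 function groups, the median difference ran from 0.099 for the kinesins to 0.28 for these 3 genes, and in the common run from -0.15 for spindle assembly to 0.075 for mitotic proteolysis. Of the 13 dim members, 11 lay above and 2 below 0 (-0.36 to 0.34, median 0.065), and in the common run 1 lay above and 12 below (median -0.21), without a test.

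Other genes of mitosis, a list of kinesins, condensin and centromere subunits, centriole and checkpoint genes that holds no member, went both ways. Of 73 on the array, 41 were tested and none passed over 6 arrays (3 higher and 3 lower at an unadjusted p under 0.05). Over 6 arrays the median was 0.11, with 28 above and 13 below 0, where 50.7% of all genes lay above. With the deposited scaling 25 lay above 0, where 27.6% of all genes did. In the common run the median was -0.030 with 15 above 0, where 52.6% of all genes were. Cdc25b, a phosphatase that activates Cdk1, lay at 7.60, 7.57 and 7.48 without and 7.24, 7.03 and 7.28 with antibiotics, all antibiotics arrays below all re-fed arrays. Its difference was -0.37 (SE 0.11, adjusted p = 0.245) and -0.39 in the common run. Pttg1 encodes securin, the inhibitor of separase, and lay at 6.80, 7.20 and 6.99 without and 7.29, 7.45 and 7.59 with antibiotics, all antibiotics arrays above all re-fed arrays. The difference was 0.45 (SE 0.13, adjusted p = 0.25) and 0.27 in the common run.

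Sass6, a protein of the cartwheel on which centrioles form, lay at 6.17, 6.76 and 6.94 without and 5.91, 6.13 and 6.10 with antibiotics. All antibiotics arrays lay below all re-fed arrays, and the difference was -0.57 (SE 0.18, adjusted p = 0.267) over 6 arrays. Within the common run Sass6 fell by 0.83 (adjusted p = 0.0423), the 1 gene of this list to pass there. Of 41 genes, 3 lay higher and 4 lower with groups that did not overlap, where 8.88% and 10.7% of all genes did.

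Of 16 tested regulators of G2/M transcription (the MuvB core, B-Myb, E2F and pocket proteins and NF-Y subunits), none passed (1 higher and 3 lower at an unadjusted p under 0.05), 9 lay above and 7 below 0, and the median was 0.077. With array medians set equal 6 of 16 lay above 0, where 34.4% of all genes did. With the deposited scaling 5 of 16 did, where 27.6% of all genes did. Relative to the median of all genes, the regulators' median was 0.021 under both. Mybl2, which encodes B-Myb and joins MuvB to activate genes with a CHR, lay at 7.20, 7.27 and 7.24 without and 7.65, 7.68 and 7.37 with antibiotics. Its groups did not overlap, and the difference was 0.33 (SE 0.11, adjusted p = 0.296) and 0.41 in the common run. Of the 16 regulators, 2 lay higher and 2 lower with groups that did not overlap, where 8.88% and 10.7% of all genes did. Rbl1 encodes p107, a pocket protein of the DREAM complex that represses these genes, and lay at 8.13, 8.23 and 8.34 without and 7.93, 7.98 and 7.92 with antibiotics, the antibiotics arrays all lower. The difference was -0.29 (SE 0.10, adjusted p = 0.301) and -0.33 in the common run. E2f3, an activator of S-phase genes, lay at 7.73, 7.86 and 7.51 without and 6.87, 7.12 and 7.64 with antibiotics; antibiotics 3 lay within the re-fed range, and the difference was -0.49 (SE 0.19, adjusted p = 0.337) and -0.69 in the common run. S-phase and origin genes, given for context, lay above 0 in 14 of 15 over 6 arrays, where 50.7% of all genes did. In the common run 12 of 15 lay above 0, where 52.6% of all genes did. None passed. Over 6 arrays 3 were higher at an unadjusted p under 0.05, as 5.3% of all genes were. In 3 of 15 all antibiotics values exceeded all re-fed values, as in 8.88% of all genes. With array weights Mcm5 (0.66, adjusted p = 0.0134) and Mcm7 (0.49, adjusted p = 0.0243), subunits of the replicative helicase named after their values were seen, passed. That fit called far more of all genes than the main one, as counted further on.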

How the data were processed

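RNA from 6 samples, 3 per group, was hybridised to 1 Affymetrix array each. The deposited table holds log2 values of 35557 probe sets, which the authors made with RMA, per the submitters' processing notes; its version is not given in the sources used here. Groups and replicate numbers came from the sample titles. Of the probe sets, 21789 named 1 gene, 1621 several and 12147 were unnamed here. Ccnb1 had no probe set naming it alone.

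Values of the 23410 probe sets with a gene were quantile normalised, since array medians differed. A gene whose mean fell below the 40th percentile (log2 5.81) was left out as dim. The remaining 12071 were tested with lmFit and eBayes of limma 3.58.1 (R 4.3.3; 2-sided, Benjamini-Hochberg adjustment, threshold 0.05), with no block. The procedure was also run on simulated data with the same spread for every gene and no shift shared by genes on an array. That run therefore does not show how the procedure handles such shifts. The number of arrays limits the precision. The common run was inferred from shared values, not from a label, and was fitted alone. Same-numbered samples did not deviate together (correlations of 0.021, -0.034 and -0.22), so the numbers were not taken to pair them.

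The members, their function groups and the other lists were chosen with earlier results of these data known. Values on every array are given for up to 3 tested members per function group with the smallest p and for Mki67, Top2a, Cdk1, Ccnb1, Ccnb2, Aurka, Aurkb, Plk1, Foxm1 and Birc5, where measured. Up to 3 other mitosis genes and 3 regulators were named by p, and up to 4 promoters with both elements were shown. Marker lists covered the sorted epithelium, crypt-base cells, colonocytes, goblet and enteroendocrine cells, leukocytes, T cells, B and plasma cells, myeloid cells and stroma. Alternatives changed the scaling, the filter, the probe set rule, the array weights, the block, the spread estimate and the arrays used. Protein motifs were not analysed here.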

Additional observations from a re-analysis of the deposited data

How the results depend on the processing

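The count of genes called, 7 of 12071, was 45 with the deposited scaling, 62 with median scaling, 2 with no filter, 43 with the stricter filter, 1169 with array weights, 54 within the common run, 43 with trend and robust eBayes, and 0 to 11 when 1 array was left out (5, 3 and 11 without re-fed 1 to 3; 0, 4 and 2 without antibiotics 1 to 3). The replicate block gave 7 genes and 0 members and changed no call. The count of members called was 0 except with array weights, where it was 1 of 31, Ccna2, a smaller share than the 1169 of 12071 for all genes. The members' median difference was -0.037 within the common run, 0.017 with array weights, 0.10 with the deposited scaling, 0.36 with the stricter filter and 0.067 to 0.30 when 1 array was left out. The number of members above 0 was 11 (of 11 tested) with the stricter filter, 17 with array weights, 13 within the common run and 18 to 30 with 1 array left out, 18 being without antibiotics 3. Members higher with groups that did not overlap numbered 0 with the deposited scaling (0.679% of all genes) and with median scaling (3.88%), and 2 to 10 with 1 array left out (11.8% to 17.4% of all genes). The causes were not tested.

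Of 25 members named by value, 11 kept their direction in every alternative run. The sign reversed with the deposited scaling for Plk1 (-0.018), Cks2 (-0.030), Kif11 (-0.027) and Ect2 (-0.11), and with median scaling for Ect2 (-0.074). The median of all genes was -0.12 with the deposited scaling and -0.080 with median scaling. Each of these values lay above that median, so the reversals are relative to 0 and not to all genes. With array weights it reversed for Cks2 (-0.0060), Kif11 (-0.084), Birc5 (-0.065), Nusap1 (-6.2e-05), Spag5 (-0.052), Ect2 (-0.19), Racgap1 (-0.10) and Top2a (-0.094). Within the common run it reversed for Cks2 (-0.073), Kif11 (-0.26), Birc5 (-0.15), Nusap1 (-0.14), Dlgap5 (-0.027), Spag5 (-0.17), Ect2 (-0.14), Racgap1 (-0.14), Espl1 (-0.042), Top2a (-0.26) and Foxm1 (-0.12). With 1 array left out, values with a reversal ran from -0.018 to 0.42 for Aurka, -0.11 to 0.34 for Cks2, -0.12 to 0.024 for Cenpf, -0.15 to 0.22 for Kif11, -0.15 to 0.31 for Birc5, -0.011 to 0.44 for Nusap1, -0.19 to 0.33 for Spag5, -0.12 to 0.14 for Ect2, -0.11 to 0.36 for Racgap1 and -0.12 to 0.30 for Top2a. With array weights Cdc25b (-0.33), Sass6 (-0.79), Mybl2 (0.38), Rbl1 (-0.32) and E2f3 (-0.77), and of the S-phase genes Mcm5 (0.66) and Mcm7 (0.49), passed the threshold, at adjusted p from 0.00934 to 0.0362. These calls stand beside the far larger count of all genes called in that fit, given above. The 3 arrays per group and signal near the floor limit what could be told.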
